A study of Homo sapiens with 12 samples.

Results

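The genes described here are the cytosolic and mitochondrial heat shock proteins, 75 of the 57730 genes in the count table. They were chosen by symbol alone, as every HSPA, HSPB, HSPD, HSPE, HSPH, HSP90A, DNAJA, DNAJB and DNAJC gene whose name is not that of a numbered pseudogene. The endoplasmic reticulum (ER) residents HSPA5, DNAJB9, DNAJB11, DNAJC3 and DNAJC10 were left out. The label does not cover every gene that the symbols catch. HSPA13, DNAJB12, DNAJB14 and DNAJC1, among others, encode proteins of the ER or its membrane. In addition, 7 names are HSP90 pseudogenes, and HSPA7 and DNAJB3 are annotated as pseudogenes too. The rule uses no expression value, but it was set with earlier results of these data known.

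The cells were LM3, a human line that derives from MDA-MB-231 (a breast cancer line classed as triple-negative) and metastasises to the lung, and polyA-selected RNA was sequenced in 12 libraries. The 4 groups of 3 libraries were cells with a hairpin against ACSL5 plus palmitic acid (shACSL5+PA), cells with a control hairpin plus palmitic acid (shControl+PA), cells with the ACSL5 hairpin alone (shACSL5) and cells with the control hairpin alone (shControl). ACSL5 activates long-chain fatty acids by joining them to coenzyme A, and palmitic acid is a saturated long-chain fatty acid. All groups carry a hairpin and come from 1 cell line. How much palmitic acid was added, for how long and in what solvent, and which ACSL5 sequence the hairpin targets, the labels used here do not say. Effects of a vehicle cannot be told apart from those of palmitic acid, and an off-target effect of the hairpin cannot be told apart from loss of ACSL5. Since the labels do not call the replicates separate cultures, a p-value speaks only of variation among the libraries at hand, which may be technical.

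Heat shock proteins bind unfolded or partly folded proteins and help them fold, assemble, cross membranes or be degraded. HSP70 proteins work in cycles of ATP hydrolysis that are started by J-domain proteins (the DNAJ families) and reset by nucleotide exchange factors, among them the HSP110 proteins, and HSP90 receives many clients from HSP70. In the mitochondrial matrix HSPA9 takes in imported chains and the ring-shaped chaperonin HSPD1 with its lid HSPE1 folds them. Heat shock factor 1 (HSF1) switches many of these genes on by binding heat shock elements, inverted repeats of the unit GAA, in their promoters.

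Library totals were 16788694 to 21814751 counts. ACSL5 stood at 15.3 ± 2.19 CPM (CPM is the count relative to the library total, scaled with TMM factors) in shACSL5+PA against 190.9 ± 2.73 in shControl+PA, and at 11.2 ± 1.16 in shACSL5 against 143.3 ± 1.69 in shControl (SD, n = 3). VIM, CD44 and EGFR, markers of this mesenchymal-like line, were at 318 CPM or more in every library, ZEB1 at 43.8 or more, and S100A4 at 2.17 to 15.2. They were not even across shACSL5+PA, shControl+PA, shACSL5 and shControl. In that order mean CPM was 2619, 3557, 2623 and 3952 for VIM and 722.7, 650, 793.1 and 660.8 for EGFR. For ZEB1 it was 49.3, 83.8, 47.2 and 76.2, for CD44 324.6, 365.7, 373.6 and 374.2, and for S100A4 2.29, 5.79, 5.53 and 13.4. Of the luminal or epithelial markers ESR1, PGR and CDH1 were at or near 0, while ERBB2, which encodes HER2, was at 54.5 to 83.0 CPM, GATA3 at 4.89 to 9.44 and EPCAM at 1.69 to 5.09. The 3 immune markers summed to 45.1 to 53.8 CPM in shACSL5+PA, 35.7 to 36.9 in shControl+PA, 47.0 to 52.8 in shACSL5 and 34.8 to 37.4 in shControl, nearly all of it CD68, while CD3E was at 0 in every library. The 6 luminal or epithelial breast markers summed to 73.9 to 79.3, 82.0 to 88.3, 66.8 to 75.8 and 81.9 to 93.1 CPM in the same order, and the 3 lung epithelium markers, nearly all of it NKX2-1, with SFTPC at 0 throughout and SFTPB at or near 0, to 25.7 to 28.0, 36.2 to 40.9, 36.2 to 37.6 and 42.7 to 44.8 CPM. The endothelial marker CDH5 stayed under 2 CPM. Whether these differences in marker genes bear on the heat shock proteins was not tested. All levels are relative to the RNA of a library, so fewer cells of a kind and less RNA per cell cannot be told apart.

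Promoters (250 bases before the start) were searched for the heat shock element that HSF1 binds. Every match to 3 units is printed from RefSeq (GRCh38.p14), and of the 2-unit cores those of HSPA1A, HSPA1B and HSPB1. Cores before other genes, among them DNAJA1, which fell with the knockdown, are not printed. The capitals mark the element of 3 units, GAANNTTCNNGAA on either strand, or for HSPA1A, HSPA1B and HSPB1 the core of 2 units, GAANNTTC or TTCNNGAA. These lines give gene, position and sequence from 5′ to 3′ on the gene's strand.
HSPA8, far match, chr11:123062346-123062374, minus strand: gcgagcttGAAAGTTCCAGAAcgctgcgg
HSPA8, near match, chr11:123062171-123062199, minus strand: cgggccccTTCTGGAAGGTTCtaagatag
HSPA6, chr1:161524458-161524486, plus strand: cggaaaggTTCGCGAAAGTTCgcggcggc
DNAJB6, chr7:157336865-157336893, plus strand: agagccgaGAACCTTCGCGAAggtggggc
HSPA1A, core, chr6:31815429-31815452, plus strand: aaaccctgGAATATTCccgacctg
HSPA1B, core, chr6:31827625-31827648, plus strand: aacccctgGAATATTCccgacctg
HSPB1, core, chr7:76302483-76302506, plus strand: taacgagaGAAGGTTCcagatgag

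Of the 75 genes, 58 matched an entry of the promoter table. The 3-unit element was in 3 of these 58 (5.17%) and in 155 of 35116 promoters in the table (0.441%). The 2-unit core, which every 3-unit element contains, was in 13 of 58 (22.4%) against 11.6% of all promoters. The HSPA1A core lies between HSPA1A and the divergent gene HSPA1L, so the same bases count for both. A match describes letters in this window, and binding was not measured.

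Most of the heat shock protein RNA came from few genes. Per kilobase of exon, the mean level over all libraries was 927.1 CPM for HSP90AB1, the constitutive cytosolic HSP90, 490.8 for HSPA8, the constitutive cytosolic HSP70, 282.2 for HSP90AA1, the inducible cytosolic HSP90, 271.2 for the small heat shock protein HSPB1 and 223.8 for HSPD1. DNAJA1 (153.8), HSPA1B (150.7) and HSPE1 (119.4) followed, and no other gene reached 100 CPM per kilobase. HSPA6, a strictly heat-inducible HSP70, had 0.962 CPM per kilobase, and HSPB8 had 0.161. Of the 75 genes, 55 passed the filter on low counts, among 14706 genes tested. Of the 20 that did not, 10 had no count in any library, among them HSPB2, HSPB3, HSPB7, DNAJB8 and DNAJC5B, and the rest never exceeded 11 counts in a library. DNAJA4 was in this last set.

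The summed level of the 75 genes was 14490, 14760 and 14470 CPM in shACSL5+PA, 13600, 13650 and 13600 in shControl+PA, 13660, 13770 and 13550 in shACSL5, and 11720, 11820 and 11770 in shControl. Untreated control cells were lowest, palmitate-treated knockdown cells highest, and the groups with 1 of the 2 changes overlapped between them. The sum rests on the abundant genes, and single genes moved both ways.

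**Figure D1:**
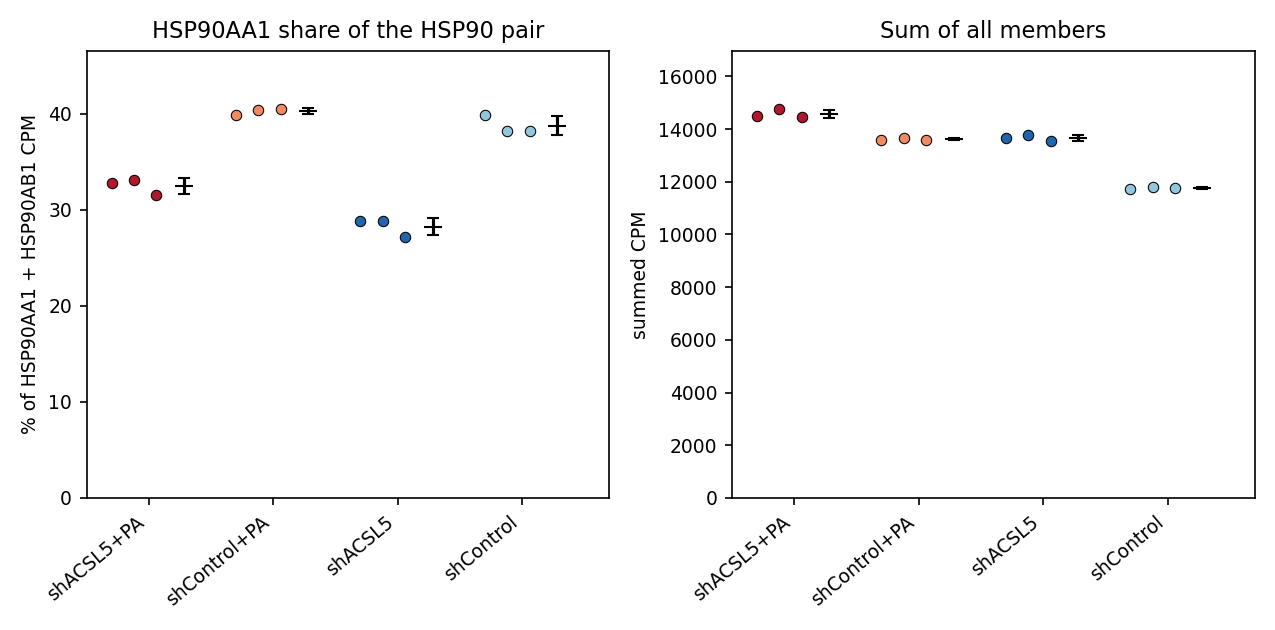
Left, HSP90AA1 as a percentage of the CPM of HSP90AA1 and HSP90AB1 together, and right, the summed CPM of all 75 heat shock protein genes, by library. Points are libraries and bars are means with SD (n = 3); the knockdown groups have the lower HSP90AA1 shares (31.6% to 33.1% in shACSL5+PA and 27.2% to 28.8% in shACSL5), and shControl has the lowest sum.

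The knockdown of ACSL5 without palmitate compared shACSL5 with shControl. Of the 55 tested genes 22 rose and 16 fell, so 69.1% were called, where 62.3% of all tested genes were called (29.7% higher and 32.6% lower). The share of called genes is near that background. The median change was 0.05 on the log2 scale, against -0.02 over all tested genes. By role, 6 of 8 mitochondrial genes rose, 5 of 10 HSP70 genes rose and 1 fell, and 2 of 3 HSP110 genes rose and 1 fell. HSP90 had 1 rise and 1 fall of 2, DNAJA and DNAJB 3 and 3 of 9, the DNAJC genes not grouped as mitochondrial 5 and 9 of 20, and 1 of 3 small heat shock proteins fell. These counts depend on the role given to each gene, and whether the roles differ was not tested. Every adjusted p comes from edgeR's quasi-likelihood test with Benjamini-Hochberg adjustment over all tested genes. Under palmitate 18 rose and 13 fell (56.4%, background 50.5%, with 24.4% higher and 26.1% lower). In both comparisons, which use separate libraries but the same hairpins, 15 genes rose and 10 fell. The share of all tested genes called the same way in both was not counted, so this overlap has no background beside it.

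**Figure D2:**
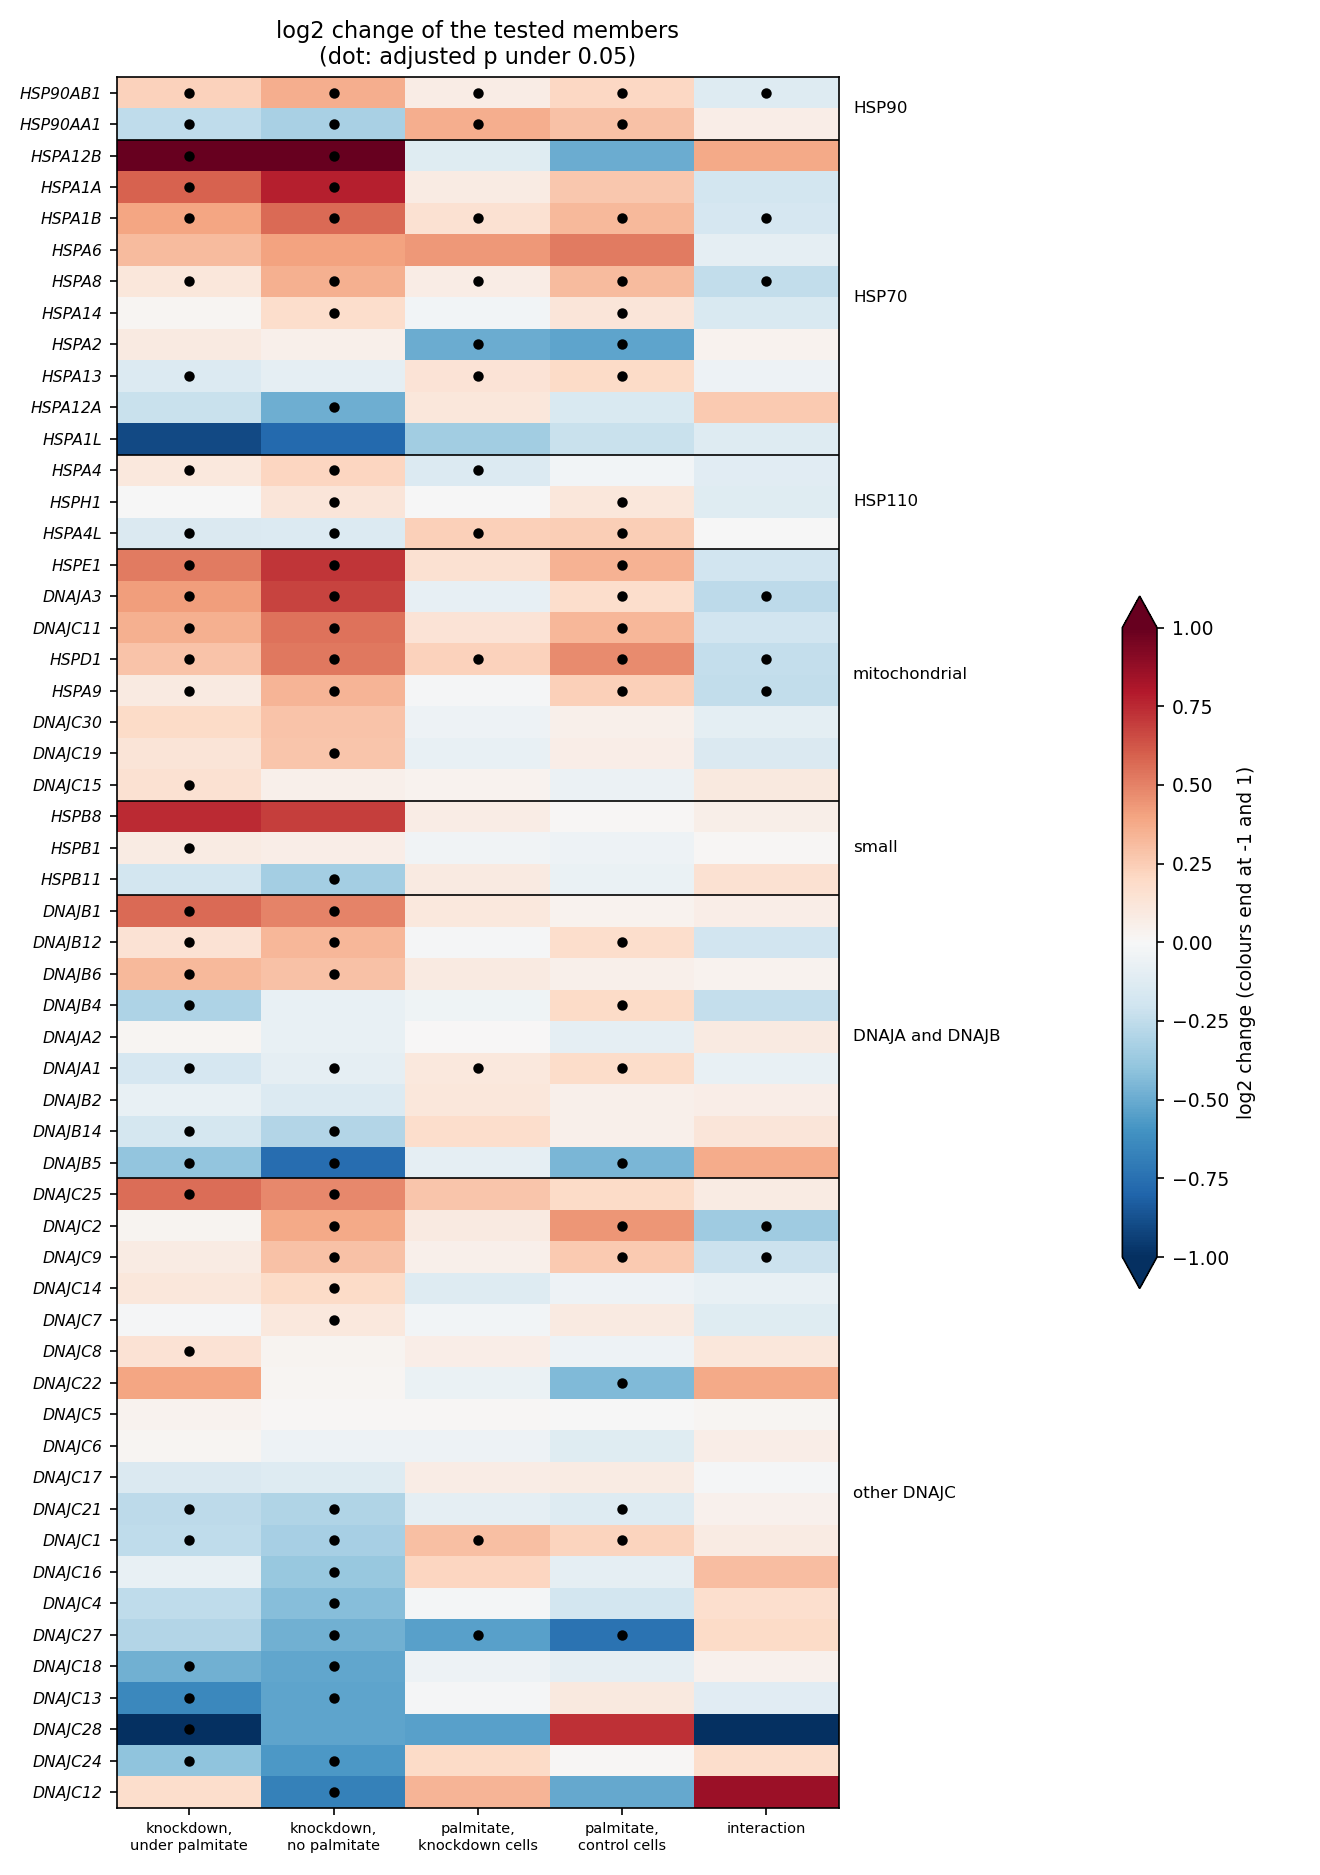
log2 change of the 55 tested heat shock protein genes (rows, grouped by role) in 5 comparisons (columns). Red is higher and blue lower in knockdown or palmitate-treated cells, colours end at -1 and 1, and dots mark an adjusted p under 0.05; the mitochondrial block has 6 dots, all in red, in each of the knockdown columns.

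The cytosolic HSP90 pair moved apart with the knockdown. HSP90AB1 (ENSG00000096384, chromosome 6, 44246166 to 44253888, plus strand, GRCh38) had 2963, 2954 and 2976 CPM in shACSL5 against 2256, 2335 and 2331 in shControl, a log2 change of 0.36 (SE 0.02, adjusted p = 1.79e-13). HSP90AA1 (ENSG00000080824, chromosome 14, 102080738 to 102139699, minus strand) had 1200, 1193 and 1112 CPM in shACSL5 against 1497, 1446 and 1439 in shControl, a change of -0.32 (SE 0.03, adjusted p = 1.32e-09). All knockdown libraries were above all control libraries for HSP90AB1 and below them for HSP90AA1. Under palmitate the same held: HSP90AB1 had 3066, 3158 and 3134 CPM in shACSL5+PA against 2691, 2653 and 2639 in shControl+PA (0.23, SE 0.02, adjusted p = 1.06e-09), and HSP90AA1 had 1493, 1560 and 1449 against 1785, 1796 and 1799 (-0.26, SE 0.03, adjusted p = 9.92e-08). HSP90AA1 therefore made up 32.5% ± 0.760 of the pair in shACSL5+PA against 40.3% ± 0.341 in shControl+PA, and 28.3% ± 0.918 in shACSL5 against 38.8% ± 0.972 in shControl (SD, n = 3). No HSP90AA1 share of a knockdown library reached that of a control library. Other annotated genes, among them the pseudogene HSP90AB3P, hold 16.6% of the 50-base stretches of HSP90AB1 and 11.3% of those of HSP90AA1, so some reads of either could be counted elsewhere.

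Among HSP70 genes, HSPA8 (ENSG00000109971, chromosome 11, 123057489 to 123063230, minus strand) had 2472, 2530 and 2513 CPM in shACSL5 against 1912, 1970 and 1977 in shControl (0.36, SE 0.02, adjusted p = 1.85e-13). Under palmitate it had 2616, 2647 and 2631 CPM in shACSL5+PA against 2433, 2415 and 2445 in shControl+PA (0.11, SE 0.02, adjusted p = 2.58e-05). The groups did not overlap in either setting. The stress-inducible HSPA1B (ENSG00000204388, chromosome 6, 31827735 to 31830255, plus strand) had 414, 411 and 430 CPM in shACSL5 against 279, 284.5 and 284.5 in shControl (0.57, SE 0.03, adjusted p = 3.3e-13). Its near-copy HSPA1A shares 71.3% of its 50-base stretches, so reads of the pair cannot be told apart with confidence, and HSPA1A held 1.51% to 2.64% of the pair's CPM. The sum of both was 475.5 ± 9.27 CPM in shACSL5+PA against 360.2 ± 10.5 in shControl+PA, and 427.6 ± 8.97 in shACSL5 against 288.2 ± 1.67 in shControl (SD, n = 3). HSPA14, a ribosome-associated HSP70, rose without palmitate (0.17, SE 0.05, adjusted p = 0.00246), and its symbol is carried by overlapping annotated genes.

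HSPA12A, a distant HSP70 relative, fell to 10.3 ± 1.00 CPM in shACSL5, against 14.5 ± 0.774 in shControl (-0.49, SE 0.10, adjusted p = 0.000272). HSPA12B, at 0.450 to 2.55 CPM over all libraries, rose without palmitate (1.10, SE 0.38, adjusted p = 0.0163) and with it (1.47, SE 0.40, adjusted p = 0.00402). Without shControl replicate 1, shControl replicate 2 or shACSL5 replicate 2 its first call was lost (adjusted p up to 0.0992). HSPA6 had a log2 difference of 0.40 (SE 0.27, adjusted p = 0.2) and was not called. The HSP110 exchange factors did not share a direction: HSPA4 rose in both settings (0.22 and 0.11), with 516, 532.5 and 521 CPM in shACSL5 against 458, 455 and 439 in shControl. HSPH1 rose without palmitate (0.12, SE 0.03, adjusted p = 0.00151), at 588, 578 and 558 CPM in shACSL5 against 541, 527 and 518 in shControl. With the knockdown under palmitate HSPH1 did not rise (-4.71e-05, SE 0.03, adjusted p = 0.999), while HSPA4L fell there (-0.14, SE 0.05, adjusted p = 0.0276). HSPA4L also fell without palmitate (-0.14, SE 0.05, adjusted p = 0.0321), a call lost under 7 of 18 alternatives, among them without shControl replicate 1, shControl replicate 3 or shACSL5 replicate 3 (adjusted p up to 0.197).

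Of the 8 genes grouped as mitochondrial, 6 rose and 0 fell with the knockdown in each setting. HSPE1 (ENSG00000115541, chromosome 2, 197499994 to 197503457, plus strand) had 268, 274 and 267 CPM in shACSL5 against 168, 168 and 159 in shControl (0.71, SE 0.06, adjusted p = 3.72e-10). Its partner HSPD1 (ENSG00000144381, chromosome 2, 197486581 to 197516737, minus strand) had 987, 1045 and 946 CPM in shACSL5 against 680, 696.5 and 690 in shControl (0.53, SE 0.03, adjusted p = 3.87e-13). Neither gene's groups overlapped. The 2 genes stand head to head, with 104 bases between their RefSeq starts, and 14.2% of HSPE1's exon bases overlap HSPD1 on the opposite strand, so reads there cannot be told apart without strand. Under palmitate HSPE1 had 336, 291 and 273 CPM in shACSL5+PA against 204, 196 and 230 in shControl+PA (0.52, SE 0.06, adjusted p = 1.02e-07), and HSPD1 had 1158, 1185 and 1152 against 936, 965.5 and 962 (0.29, SE 0.03, adjusted p = 2.11e-08). The knockdown libraries were again all above the control libraries.

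DNAJA3, the mitochondrial J-domain protein that works with HSPA9, had 104, 101 and 103 CPM in shACSL5 against 62.4, 66.3 and 63.8 in shControl (0.68, SE 0.05, adjusted p = 1.5e-11). HSPA9 (ENSG00000113013, chromosome 5, 138553756 to 138575724, minus strand) had 777, 795 and 780 CPM in shACSL5 against 624, 618 and 619 in shControl (0.34, SE 0.02, adjusted p = 2.32e-11). Both stood above their controls in every library. DNAJC11, an outer membrane protein of the complex that shapes cristae, rose by 0.55 (SE 0.05) and DNAJC19, an inner membrane protein, by 0.28 (SE 0.08). All but DNAJC19 also rose with the knockdown under palmitate, by 0.35 for DNAJC11, 0.42 for DNAJA3 and 0.09 for HSPA9. DNAJC15 was called only there (0.15, SE 0.06, adjusted p = 0.0321), and not without shControl+PA replicate 1, shACSL5+PA replicate 1 or shACSL5+PA replicate 2 (adjusted p up to 0.173). DNAJC11 shares 27.9% of its exon bases with THAP3 on the opposite strand.

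**Figure D3:**
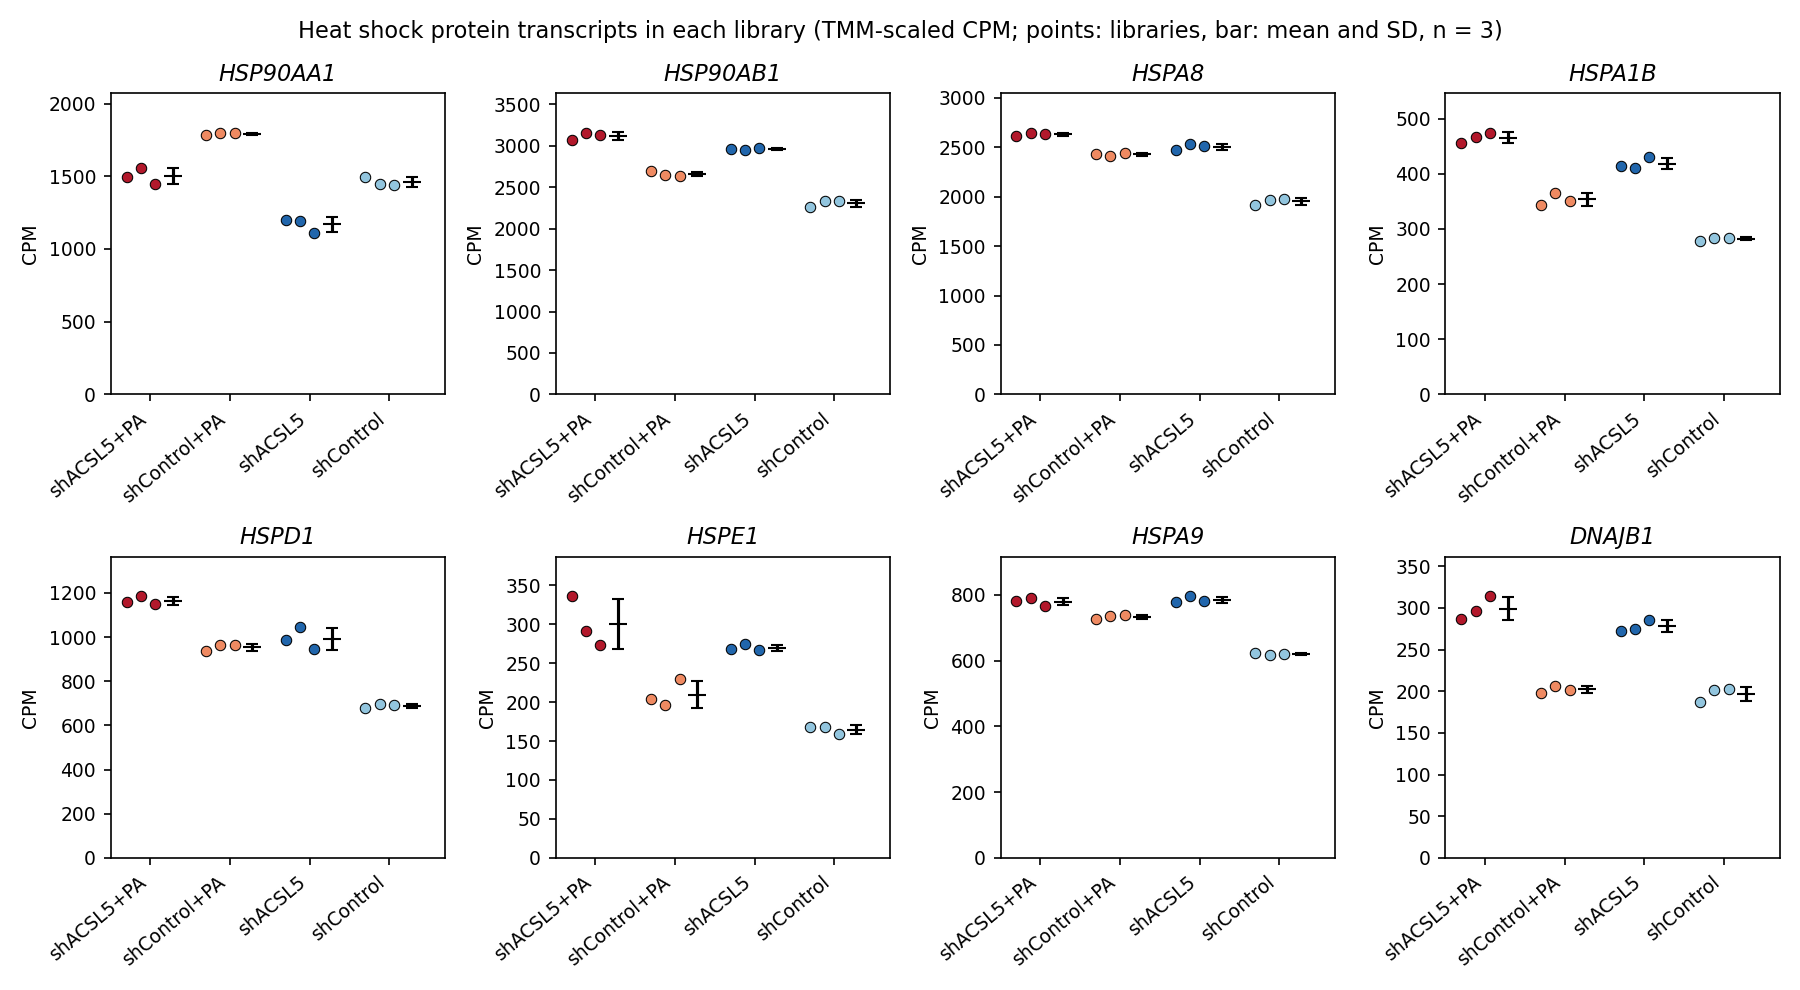
TMM-scaled CPM of 8 heat shock protein genes in each library, with axes starting at 0. Points are libraries and bars are means with SD (n = 3). HSP90AA1 is the only one of the 8 lower in knockdown cells than in control cells, and every other gene has its lowest mean in shControl.

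The cytosolic J-domain proteins split. DNAJB1, the main partner of HSPA8 and HSPA1B and a classical heat shock gene, had 272, 275 and 286 CPM in shACSL5 against 186.5, 201 and 202 in shControl (0.50, SE 0.04, adjusted p = 1.49e-10). Under palmitate it had 287, 296 and 314 CPM in shACSL5+PA against 198, 207 and 201 in shControl+PA (0.56, SE 0.04, adjusted p = 4.54e-11). Knockdown and control libraries did not overlap. DNAJB6, which keeps aggregation-prone proteins soluble, rose by 0.29 (SE 0.04) without palmitate and by 0.33 (SE 0.04) with it. DNAJA1, another HSP70 partner, fell by 0.09 (SE 0.03, adjusted p = 0.0123) and by 0.17 (SE 0.03, adjusted p = 6.61e-05), and its first call was lost without shControl replicate 1, shACSL5 replicate 1 or shACSL5 replicate 3 (adjusted p up to 0.079). DNAJA2, of the same DNAJA family, was at -0.07 (SE 0.03, adjusted p = 0.0618) and was not called in any comparison.

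DNAJB5 fell to 8.38, 8.82 and 8.44 CPM in shACSL5, against 12.99, 14.4 and 16.1 in shControl (-0.76, SE 0.13, adjusted p = 2.08e-05). Under palmitate it fell by 0.39 (SE 0.13, adjusted p = 0.0173), and the call failed without shControl+PA replicate 1, shACSL5+PA replicate 1 or shACSL5+PA replicate 3 (adjusted p up to 0.139). DNAJB12, an ER membrane J-domain protein, rose by 0.33 (SE 0.05) without palmitate and by 0.14 (SE 0.05) with it, while its close relative DNAJB14 fell by 0.30 (SE 0.07) and by 0.17 (SE 0.06). The second DNAJB14 call was lost without shControl+PA replicate 2, shACSL5+PA replicate 1 or shACSL5+PA replicate 3 (adjusted p up to 0.135). DNAJB4 was at -0.07 (SE 0.06, adjusted p = 0.345) without palmitate and fell by 0.31 (SE 0.06, adjusted p = 0.000302) under palmitate.

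Of the small heat shock proteins 3 of 8 were tested. HSPB1 (chromosome 7, 76302544 to 76304295, plus strand) was at 456, 451 and 471 CPM in shACSL5 against 432, 430 and 455 in shControl, and the groups overlapped (0.07, SE 0.03, adjusted p = 0.0626). HSPB11, a ciliary transport protein that carries the family's name, fell by 0.34 (SE 0.08, adjusted p = 0.000548). HSPB1 rose with the knockdown under palmitate by 0.08 (SE 0.03, adjusted p = 0.0318), and that call was lost without shControl+PA replicate 1, shControl+PA replicate 3 or shACSL5+PA replicate 3 (adjusted p up to 0.126).

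The DNAJC proteins outside mitochondria are a mixed family that share the J domain and little else. DNAJC13, an endosomal J-domain protein, had 95.4, 98.8 and 94.2 CPM in shACSL5 against 143, 139 and 134.5 in shControl (-0.53, SE 0.04, adjusted p = 1.37e-10). Under palmitate it had 94.2, 97.7 and 93.6 CPM in shACSL5+PA against 144, 155 and 147 in shControl+PA (-0.64, SE 0.04, adjusted p = 1.39e-11). Knockdown libraries were below control libraries throughout. DNAJC18 (-0.52, SE 0.09), DNAJC24, which takes part in diphthamide synthesis (-0.58, SE 0.10), DNAJC21, a ribosome biogenesis factor (-0.30, SE 0.05), and DNAJC1, an ER membrane protein (-0.33, SE 0.05), also fell in both settings. DNAJC12 fell without palmitate (-0.68, SE 0.23, adjusted p = 0.0143), at 1.65 to 2.43 CPM in shACSL5 against 2.89 to 3.57 in shControl, and lost its call without shControl replicate 2 or shACSL5 replicate 1 (adjusted p up to 0.0743). DNAJC2, a ribosome-associated J-domain protein, and DNAJC9, a histone chaperone, rose without palmitate by 0.38 (SE 0.07, adjusted p = 7.63e-05) and 0.29 (SE 0.04, adjusted p = 2.13e-07).

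DNAJC25, a membrane J-domain protein, was uneven between replicates. It had 37.1, 41.7 and 37.1 CPM in shACSL5+PA against 21.1, 33.7 and 24.0 in shControl+PA, and 34.2, 34.0 and 27.6 in shACSL5 against 19.0, 32.4 and 17.4 in shControl. Replicate 2 stood well above the others in both control groups, and without palmitate the groups overlapped. The gene was called higher (0.48, SE 0.17, adjusted p = 0.016 without palmitate; 0.56, SE 0.16, adjusted p = 0.00591 with it). The first call was lost with DESeq2 and without shControl replicate 1, shControl replicate 3, shACSL5 replicate 1 or shACSL5 replicate 2 (adjusted p up to 0.125), and the second with DESeq2 and without shControl+PA replicate 1 (up to 0.0609). Its exons overlap the read-through gene DNAJC25-GNG10 over 13.8% of their length.

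Palmitate in control cells compared shControl+PA with shControl, both with the control hairpin. Of the 55 genes 19 rose and 5 fell (43.6% called), against a background of 28.7% of all tested genes, 15.1% higher and 13.5% lower. The median change was 0.05 on the log2 scale and 0.00 (-0.0026) over all tested genes. With library sizes alone as the scale the counts were 16 higher and 7 lower, and 35.9% of all calls were rises where the main scale had 52.8%. The 5 falls became 3 without shControl replicate 3, shACSL5 replicate 1, shControl+PA replicate 1, shControl+PA replicate 3 or shACSL5+PA replicate 1. This comparison shares its shControl libraries with the knockdown without palmitate. In all, 13 genes were called higher in both and 4 (DNAJA1, DNAJC1, HSP90AA1 and HSPA4L) were higher with palmitate and lower with the knockdown. The matching shares of all tested genes were not counted.

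HSPD1 had 936, 965.5 and 962 CPM in shControl+PA against 680, 696.5 and 690 in shControl, the largest called rise among these genes (0.47, SE 0.03, adjusted p = 5.07e-11). HSPE1 rose by 0.35 (SE 0.06), DNAJC11 by 0.33 (SE 0.05), HSPA9 by 0.24 (SE 0.02) and DNAJA3 by 0.18 (SE 0.05, adjusted p = 0.00753), the last of which lost its call without shControl+PA replicate 1 (adjusted p = 0.0609). Both HSP90 genes rose, HSP90AA1 to 1785, 1796 and 1799 CPM in shControl+PA against 1497, 1446 and 1439 in shControl (0.30, SE 0.03, adjusted p = 5.97e-08), and HSP90AB1 by 0.21 (SE 0.02, adjusted p = 3.4e-08). HSPA8 rose by 0.32 (SE 0.02, adjusted p = 2.94e-11) and HSPA1B by 0.32 (SE 0.03, adjusted p = 5.89e-08). HSPA1A was at 0.27 (SE 0.18, adjusted p = 0.282). DNAJB1 was at 0.04 (SE 0.04, adjusted p = 0.509), DNAJB6 at 0.05 (SE 0.04, adjusted p = 0.303) and HSPB1 at -0.05 (SE 0.03, adjusted p = 0.265), and for all 3 the treated and untreated libraries overlapped.

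The 5 genes that fell with palmitate were DNAJC27, HSPA2, DNAJB5, DNAJC22 and DNAJC21. DNAJC27 fell to 5.14, 6.80 and 6.54 CPM in shControl+PA, against 10.7, 11.1 and 9.05 in shControl (-0.74, SE 0.15, adjusted p = 0.000669). HSPA2, an HSP70 best known from the testis, fell to 13.7, 14.8 and 11.6 CPM in shControl+PA, against 21.3, 18.1 and 18.6 in shControl (-0.53, SE 0.11, adjusted p = 0.000834). For both the groups did not overlap. DNAJB5 (-0.46, SE 0.13, adjusted p = 0.00887) lost its call without shControl replicate 3 or shControl+PA replicate 3 (adjusted p up to 0.057). DNAJC22 was called in 3 and DNAJC21 in 9 of 18 alternatives.

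In knockdown cells palmitate raised 9 and lowered 3 of the 55 genes (21.8%, background 21.9%, with 12.1% higher and 9.78% lower). HSP90AA1 rose to 1493, 1560 and 1449 CPM in shACSL5+PA, against 1200, 1193 and 1112 in shACSL5, the largest called rise (0.36, SE 0.03, adjusted p = 6.17e-09). DNAJC1 rose by 0.30 (SE 0.05), HSPA4L by 0.24 (SE 0.05), HSPD1 by 0.23 (SE 0.03) and HSPA1B by 0.15 (SE 0.03). HSP90AB1 rose by 0.07 (SE 0.02, adjusted p = 0.00732) and HSPA8 by 0.07 (SE 0.02, adjusted p = 0.00908), a call that was lost without shACSL5 replicate 1 (adjusted p = 0.057). DNAJC27 (-0.55, SE 0.16, adjusted p = 0.0137), HSPA2 (-0.49, SE 0.11, adjusted p = 0.00199) and HSPA4 (-0.13, SE 0.03, adjusted p = 0.00114) fell. The DNAJC27 call was lost without shACSL5 replicate 3 or shACSL5+PA replicate 2 (adjusted p up to 0.101).

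The interaction, taken as the palmitate change in knockdown cells less the change in control cells, tested whether the responses differed. It was called for 8 of the 55 genes (14.5%, the same as the background of 14.5%), all 8 negative, where 7.15% of all tested genes were positive and 7.39% negative. At an unadjusted p under 0.05 it counted 19 of the 55 genes in either direction, and 4046 of all 14706 tested genes. DESeq2 called 11 of the 55, all negative as well. It called 2131 of all 14706 tested genes, and 43.4% of those calls were positive. With library sizes alone the 8 negative calls stood, while 59.9% of all calls were positive, where the main scale had 49.2%. HSPA9 changed by -0.01 (SE 0.02, adjusted p = 0.827) with palmitate in knockdown cells and rose by 0.24 in control cells (interaction -0.25, SE 0.03, adjusted p = 2.19e-05). HSPA8 differed by -0.24 (SE 0.03, adjusted p = 2.18e-06), HSPD1 by -0.24 (SE 0.04, adjusted p = 0.00037) and HSP90AB1 by -0.13 (SE 0.03, adjusted p = 0.00189). DNAJA3 was at -0.08 (SE 0.04, adjusted p = 0.193) in knockdown cells and rose in control cells (interaction -0.26, SE 0.07, adjusted p = 0.00884). HSPA1B (-0.17, SE 0.04, adjusted p = 0.0108), DNAJC9 (-0.21, SE 0.05, adjusted p = 0.00562) and DNAJC2 (-0.35, SE 0.10, adjusted p = 0.0184) completed the set. DNAJC2 lost the call without shControl replicate 2, shControl replicate 3 or shACSL5 replicate 1 (adjusted p up to 0.0534).

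All 8 genes were also called higher with the knockdown without palmitate and with palmitate in control cells. The 3 contrasts share the shControl libraries, in which these 8 genes had their lowest mean. HSP90AA1 did not follow them, with an interaction of 0.07 (SE 0.04, adjusted p = 0.314), and HSPE1 was at -0.20 (SE 0.08, adjusted p = 0.122). In knockdown cells HSPE1 was at 0.15 (SE 0.06, adjusted p = 0.0555), DNAJC11 at 0.14 (SE 0.05, adjusted p = 0.0558) and DNAJB1 at 0.11 (SE 0.04, adjusted p = 0.0505) with palmitate. DNAJC2 was at 0.09 (SE 0.07, adjusted p = 0.407) and DNAJC9 at 0.05 (SE 0.03, adjusted p = 0.369). DNAJC9 was at 0.08 (SE 0.04, adjusted p = 0.0672) with the knockdown under palmitate, and 28.6% of its exon bases overlap genes on the opposite strand.

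**Figure D4:**
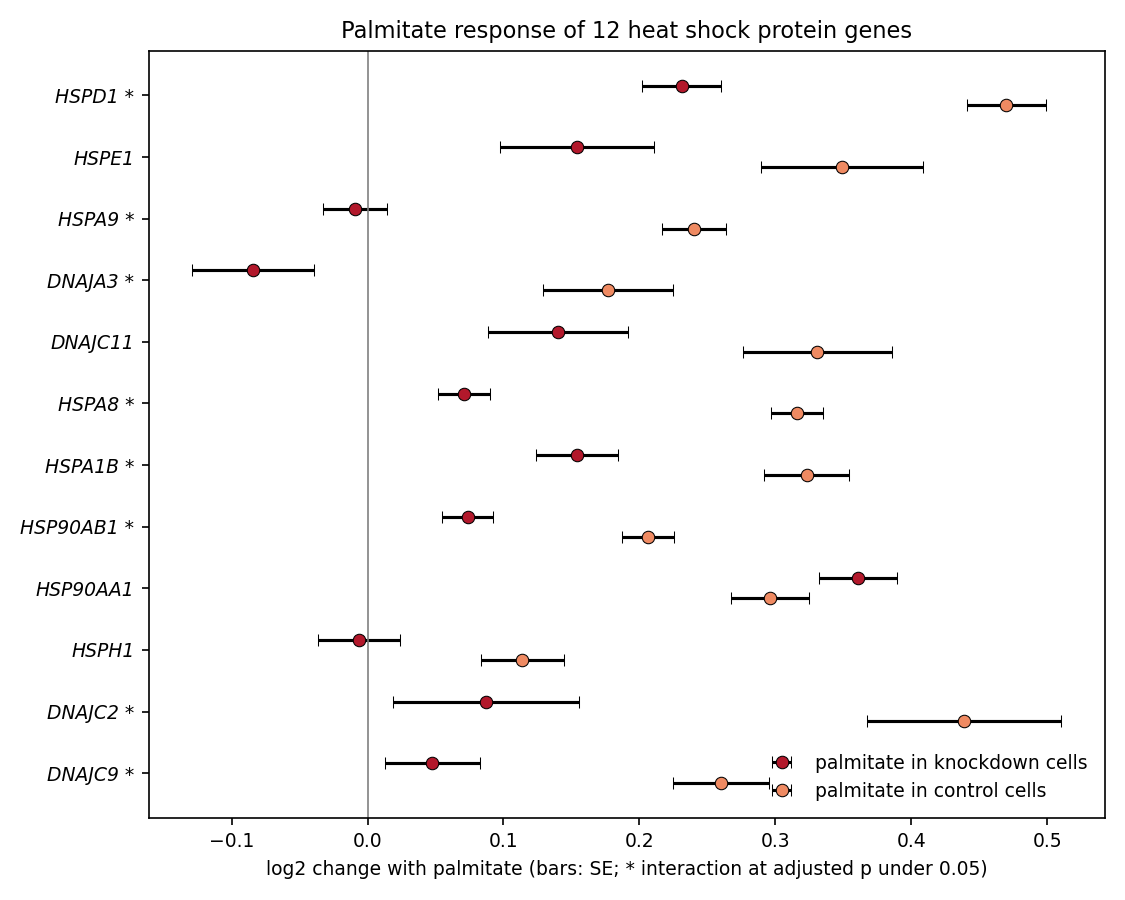
log2 change with palmitate (x axis) for 12 heat shock protein genes (rows) in knockdown cells (dark red) and in control cells (orange), with SE bars; an asterisk marks an interaction with an adjusted p under 0.05. HSPD1, HSPA9 and HSPA8 lie further right in control cells (0.47, 0.24 and 0.32) than in knockdown cells (0.23, -0.01 and 0.07), and HSP90AA1 does not (0.30 and 0.36).

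Of the 3 genes with a 3-unit element, HSPA8 and DNAJB6 rose with the knockdown without palmitate, by 0.36 (SE 0.02) and 0.29 (SE 0.04), and HSPA6, a gene of low counts, was at 0.40 (SE 0.27, adjusted p = 0.2). Of the 10 tested genes with a 2-unit core 4 rose and 1 fell, and of the 39 tested genes in the promoter table without one 16 rose and 12 fell. Over all tested genes 29.7% rose and 32.6% fell there. Under palmitate 6 of 10 rose and 1 fell against 11 of 39 that rose and 10 that fell (background 24.4% and 26.1%). The 6 include HSPA1A and HSPA1B, whose reads cannot be told apart with confidence. They also include DNAJC15 and HSPB1, whose calls were lost without some libraries. With palmitate in control cells 3 of 10 rose and 0 fell against 14 of 39 that rose and 4 that fell (background 15.1% and 13.5%). Whether genes with and without a core differ was not tested. HSP90AA1, HSPD1, HSPE1 and DNAJB1 had no core in this window. The HSPA8 matches lie in bases that GENCODE 29 gives as exon of some transcript.

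RNA of HSF1 was higher with the knockdown in both settings, and whether this bears on the heat shock protein genes was not tested. HSF1 had 215, 210 and 220 CPM in shACSL5 against 125, 128 and 138 in shControl (0.72, SE 0.05, adjusted p = 3.95e-12). Under palmitate it had 205, 213 and 229 CPM in shACSL5+PA against 145, 147 and 135 in shControl+PA (0.60, SE 0.05, adjusted p = 2.15e-10). The groups did not overlap in either setting. With palmitate in control cells HSF1 was at 0.12 (SE 0.05, adjusted p = 0.0528), and HSF2 was called in none of the comparisons. Of other genes in the HSF list, HSF4 rose with palmitate in control cells (0.99, SE 0.12, adjusted p = 2.51e-06) and in knockdown cells (0.79, SE 0.13, adjusted p = 9.47e-05). HSF2BP fell with palmitate in control cells (-0.81, SE 0.27, adjusted p = 0.0299). HSBP1 fell with the knockdown without palmitate (-0.245, SE 0.04, adjusted p = 2.93e-06) and rose with palmitate in knockdown cells (0.23, SE 0.04, adjusted p = 6.03e-05). HSF1 is regulated largely at the protein level, which RNA does not show.

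Partner genes were read from lists of known cochaperones and related chaperones, against the same background shares as above. Of 20 tested HSP90 cochaperones 11 rose and 1 fell with the knockdown without palmitate, and 9 rose and 2 fell under palmitate. The cochaperone and prolyl isomerase FKBP4 had 313, 309 and 323 CPM in shACSL5 against 199, 196 and 202 in shControl (0.66, SE 0.03, adjusted p = 3.9e-14). STIP1, which links HSP70 to HSP90, rose by 0.40 (SE 0.03, adjusted p = 3.3e-11). Of 16 HSP70 cochaperones 11 rose and 2 fell without palmitate, and 8 rose and 1 fell with it. BAG1, a nucleotide exchange factor, rose by 0.86 (SE 0.06, adjusted p = 1.55e-11), SGTA, a cochaperone that sorts membrane proteins, rose by 0.59 (SE 0.04, adjusted p = 3.92e-11), and GRPEL1, the exchange factor of HSPA9, rose by 0.63 (SE 0.05, adjusted p = 1.38e-10). GRPEL1 had 100.3, 98.9 and 94.3 CPM in shACSL5 against 66.0, 59.6 and 64.1 in shControl, with no overlap.

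Of 18 genes of the TRiC chaperonin and prefoldin, which fold actin and tubulin among others, 12 rose and 2 fell with the knockdown without palmitate. The TRiC subunits CCT7 and CCT6A rose by 0.52 (SE 0.03, adjusted p = 2.11e-13) and 0.45 (SE 0.03, adjusted p = 2.52e-12). The prefoldin subunit VBP1 went the other way: it had 31.9, 32.2 and 28.5 CPM in shACSL5 against 113, 116 and 115 in shControl (-1.89, SE 0.05, adjusted p = 3.75e-18), and 43.3, 43.2 and 43.9 CPM in shACSL5+PA against 114, 126 and 116 in shControl+PA (-1.45, SE 0.05, adjusted p = 6.68e-16). Among 16 mitochondrial chaperones and proteases 10 rose and 3 fell without palmitate, and 9 rose and 2 fell with it. TRAP1, the mitochondrial HSP90, had 208, 199 and 207 CPM in shACSL5 against 118, 121 and 121 in shControl (0.77, SE 0.04, adjusted p = 3.43e-14). AFG3L2, an inner membrane protease, rose by 0.82 (SE 0.05, adjusted p = 1.04e-12) and PITRM1, a matrix peptidase, by 0.57 (SE 0.03, adjusted p = 1.86e-12).

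A further list held ER chaperones outside the set, and its difference from the other lists was not tested. With the knockdown under palmitate 1 of 16 rose and 12 fell, and with the knockdown alone 6 rose and 6 fell. HSP90B1, the ER HSP90, fell with the knockdown by 0.50 (SE 0.03) without palmitate and by 0.42 (SE 0.03) with it, and HSPA5, the ER HSP70, fell by 0.35 (SE 0.02) under palmitate. With palmitate 14 of 16 rose in control cells and 10 of 16 in knockdown cells. Of 15 other heat- or cold-responsive genes, some of which stand in the lists above as well, 10 rose and 2 fell with the knockdown without palmitate, and 9 rose and 2 fell under palmitate. SERPINH1, a collagen chaperone of the ER and a heat shock gene, rose by 1.18 (SE 0.05, adjusted p = 4.59e-15).

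With palmitate in knockdown cells, where 12.1% of all tested genes rose and 9.78% fell, 1 of 20 HSP90 cochaperones rose and 1 fell, 4 of 18 TRiC and prefoldin genes rose, 1 of 16 mitochondrial chaperones and proteases rose and 2 fell, and 3 of 16 HSP70 cochaperones fell. With palmitate in control cells, where 15.1% rose and 13.5% fell, 9 of 20 HSP90 cochaperones rose, 10 of 18 TRiC and prefoldin genes rose and 1 fell, 7 of 16 mitochondrial genes rose, and 2 of 16 HSP70 cochaperones rose and 2 fell. The interaction was called negative in 6 of 20 HSP90 cochaperones, 6 of 18 TRiC and prefoldin genes, 4 of 16 mitochondrial genes and 1 of 16 HSP70 cochaperones, where 7.39% of all tested genes were negative and 7.15% positive. Negative calls were also made for 5 of 16 ER chaperones and for 5 of 15 other heat- or cold-responsive genes. The 1 positive call in these lists was VBP1 (0.45, SE 0.07, adjusted p = 0.000266). FKBP4 had an interaction of -0.24 (SE 0.05, adjusted p = 0.000934), TRAP1 of -0.26 (SE 0.05, adjusted p = 0.00133) and CCT6A of -0.28 (SE 0.04, adjusted p = 4.29e-05).

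**Figure D5:**
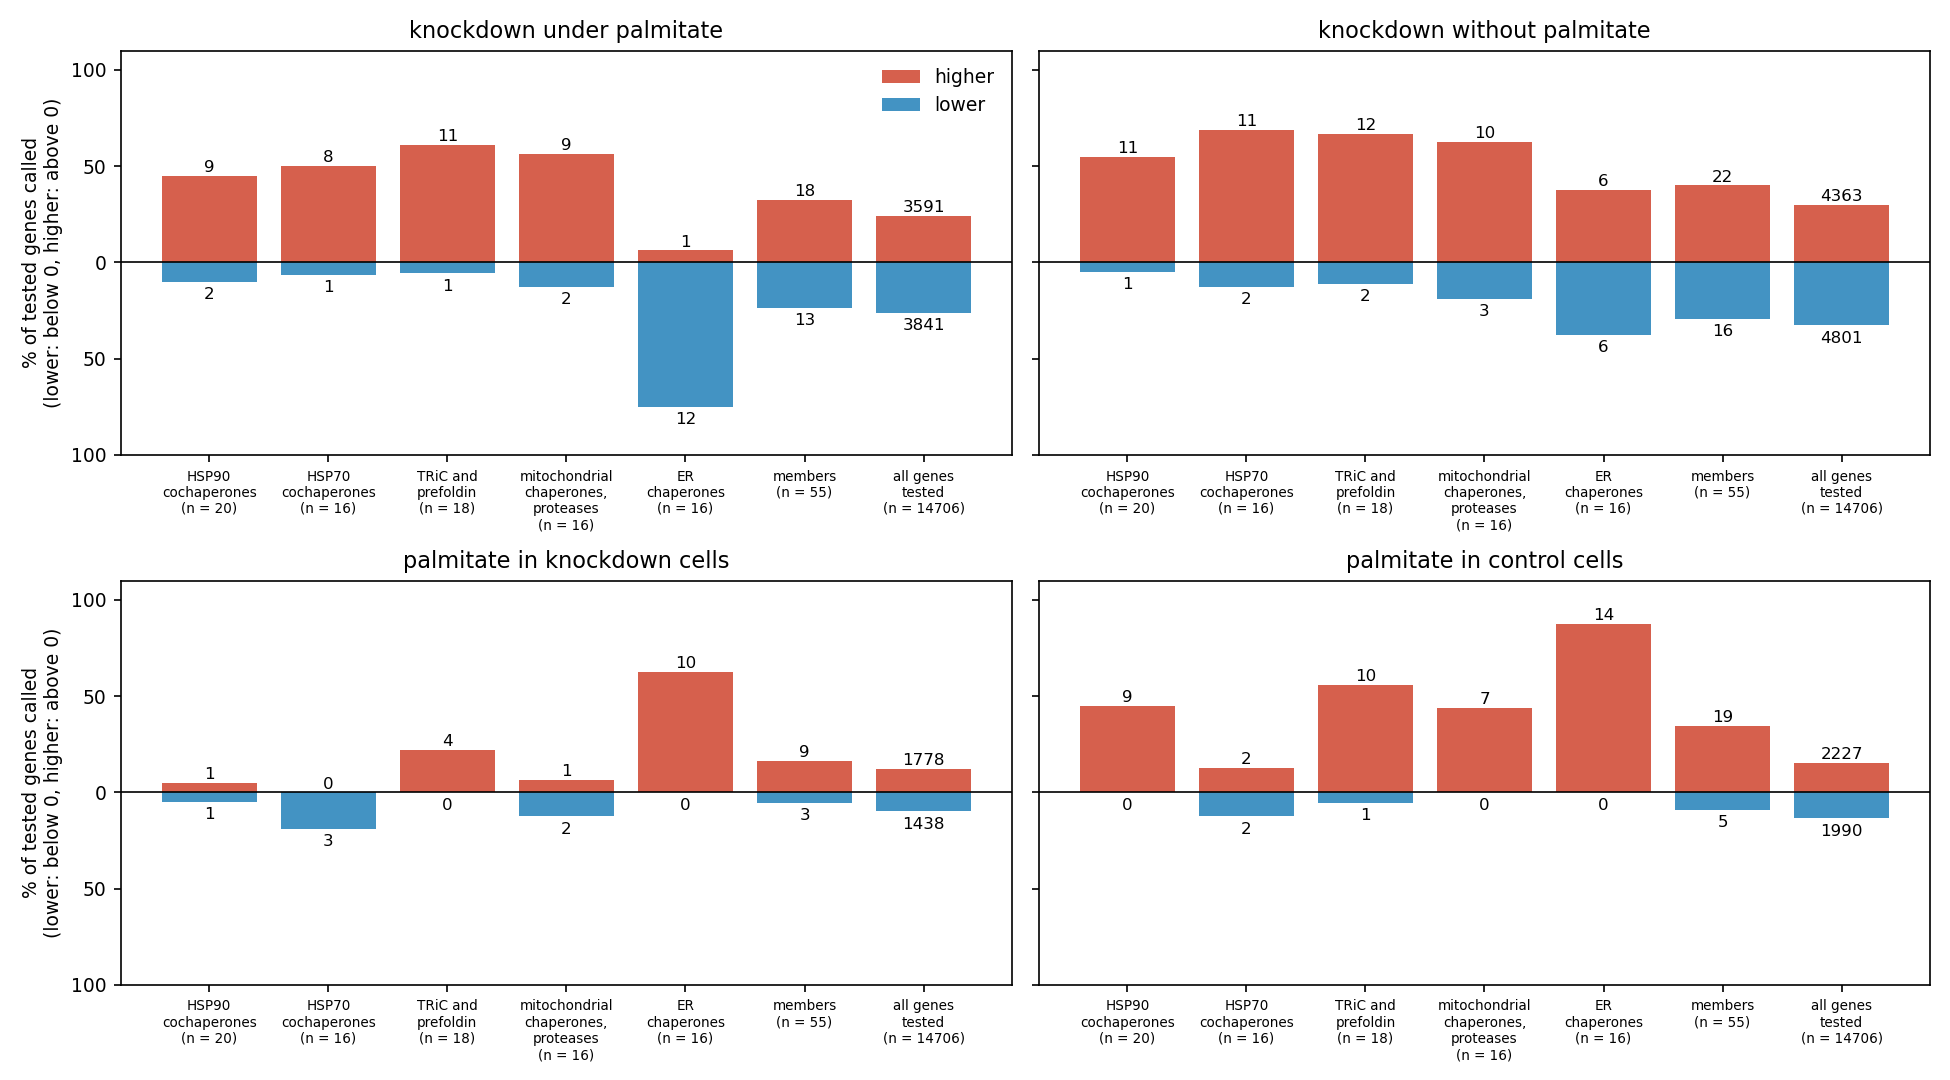
Percentage of tested genes called higher (above 0) and lower (below 0) in 5 partner lists, in the heat shock protein genes (members) and in all tested genes, for 4 comparisons; numbers on bars are counts. With the knockdown under palmitate 12 of 16 ER chaperones are lower, and 11 of 18 TRiC and prefoldin genes are higher.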

How the data were processed

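The authors deposited raw counts per gene for 12 libraries, made with fastp 0.22.0, HISAT2 2.1.0 and featureCounts on GRCh38 per the submitters' processing notes. Neither the annotation release nor the strand setting is named there. Library totals of 16788694 to 21814751 counts put 3 counts at 0.178 CPM in the smallest library, a floor that covers counting error only. The counts were filtered with filterByExpr, scaled with TMM and fitted in 1 model of the 4 groups with edgeR 4.0.16 (quasi-likelihood test, R 4.3.3). Adjusted p-values are Benjamini-Hochberg over 14706 genes, a gene is called at an adjusted p under 0.05, log2 changes are edgeR's, and an SE is the change divided by the square root of the test's F. The procedure was tested on simulated data in which few genes changed, in a single group. That does not test the scaling where 62.3% of tested genes are called, as with the knockdown without palmitate. With 3 libraries against 3, an exact permutation test of 1 gene cannot give a p below 0.1. Alternatives were DESeq2 1.42.0, RLE factors, library sizes alone, no filter on low counts, only the compared groups, a replicate block and leaving out each library.

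The members and lists were chosen with earlier results of these data known. The rule for names took the best-known family members and the 5 largest called rises and falls per comparison at a mean of at least 1 CPM. It also took up to 3 called partner genes with the smallest p per list and comparison, with HSF1, HSF2 and ACSL5. The values of some genes that the rule took are not given, among them LONP1, CDC37, PTGES3, IER5, CANX and PPID. Names outside this rule were chosen after their values were seen: DNAJB3, DNAJB8, DNAJB12, DNAJB14, DNAJC4, DNAJC5B, DNAJC9, DNAJC15, DNAJC19, DNAJC28, HSP90AB3P, HSPA7, HSPA12A, HSPB2, HSPB3 and HSPB7. Some named genes are also given in a comparison outside the one that named them. Coordinates and overlaps are from GENCODE 29 (GRCh38), lengths are exon bases, and promoters are RefSeq's for GRCh38.p14. The list of further small heat shock proteins and crystallins had 3 genes, of which 0 passed the filter.

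Of 18 pairs of same-numbered libraries 4 had deviations correlated above 0.1, 3 of them among the third replicates of shControl, shACSL5 and shACSL5+PA. Since not every pair did, libraries were not treated as paired. Some differently numbered libraries were above 0.1 as well. Examples are shACSL5 replicate 2 with shACSL5+PA replicate 1 (0.172) and shControl replicate 1 with shACSL5 replicate 2 (0.161). A marker gene of the cell line, and the sum that holds it, are not reported here.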

Additional observations from a re-analysis of the deposited data

Results flagged for a closer look

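The palmitate response differed between knockdown and control cells, by the interaction in edgeR's quasi-likelihood test with Benjamini-Hochberg adjustment, for 8 heat shock protein genes. The difference on the log2 scale was -0.25 for HSPA9 (adjusted p = 2.19e-05), -0.24 (-0.245) for HSPA8 (adjusted p = 2.18e-06), -0.24 (-0.239) for HSPD1 (adjusted p = 0.00037) and -0.13 for HSP90AB1 (adjusted p = 0.00189). It was -0.26 for DNAJA3 (adjusted p = 0.00884), -0.21 for DNAJC9 (adjusted p = 0.00562), -0.17 for HSPA1B (adjusted p = 0.0108) and -0.35 for DNAJC2 (adjusted p = 0.0184). The response was smaller in knockdown cells in all 8. The same call was made for 14.5% of all tested genes, and the 8 genes share their shControl libraries with the knockdown comparison in which they also rose.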

How the results depend on the processing

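Of 113 called values of heat shock protein genes, 85 were called in every alternative (at most 18 per comparison), and 0 changed sign. With palmitate in control cells the genes called lower were 5, and 3 with DESeq2, with RLE factors and with no low-count filter (3 to 5 when a library was left out). With palmitate in knockdown cells the genes called higher were 9, and 14 with no low-count filter, where 65 genes were tested (7 to 12 when a library was left out). The cause was not tested. Changes near 0 turned sign: DNAJB1 with palmitate in control cells was at -0.0093 with library sizes alone, and HSPA9 with palmitate in knockdown cells ranged over -0.018 to 0.0029 when a library was left out, above 0 without shACSL5 replicate 2 or shACSL5+PA replicate 3. Leaving out a library gave 7 to 12 negative interactions.

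Same-numbered libraries correlated at -0.14 to 0.259, and 4 of 18 pairs were above 0.1. With a replicate block the counts higher and lower were 23 and 17 for the knockdown without palmitate, 18 and 14 under palmitate, 18 and 4 for palmitate in control cells and 11 and 3 in knockdown cells, and 10 interactions were negative. Depth limits HSPA1L, HSPB8 and DNAJC28, which were under 1 CPM, and the 20 genes that were not tested.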
